A study of Mus musculus with 14 samples.

Results

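The transcripts described here are those of p53, its regulators and targets, and genes that sense and repair DNA damage, in mouse heart muscle cells in which the gene Ryr2 was targeted. They were chosen by name, as 33 gene symbols, and all 33 were found among the 23337 genes of the count table. Poly(A) RNA was sequenced from 14 libraries of cardiomyocytes from 4-week-old Rosa-Cas9GFP mice, named for Cas9 and GFP at the Rosa locus, that had received an adeno-associated virus (AAV) on day 1 after birth. The KO group (n = 7) received AAV-Ryr2gRNA, a virus named for a guide RNA against Ryr2, and the Ctrl group (n = 7) received AAV-Cre, a virus named for the Cre recombinase. All mice carried the Cas9 and GFP allele, and hearts were digested on a Langendorff apparatus before the cells were sorted by flow cytometry. The labels do not say whether the guide virus also carried Cre, which cells express Cas9, or whether each library came from its own animal. The p-values therefore describe the spread between libraries, which may be partly technical. No group received a guide against another site. A cut in the genome by Cas9, the loss of Ryr2 and the difference between the viruses therefore all fall on the KO group and cannot be told apart.

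p53, encoded by Trp53, is a transcription factor that is made and destroyed continuously in unstressed cells. The ubiquitin ligase Mdm2 and its partner Mdm4 hold it down, and Mdm2 is itself a target of p53, which closes a feedback loop. When DNA breaks, the kinase Atm and its downstream kinase Chek2 phosphorylate p53, which frees it from Mdm2. Stabilised p53 binds target genes that stop the cell cycle, drive cell death or aid repair. Much of this control acts on the protein, which RNA levels do not measure.

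Library totals ranged from 5689335 to 13165662 counts, and between 13688 and 14719 genes had at least 1 count. Levels are given as CPM, counts scaled to a common library size with TMM factors, and folds as log2 fold changes, KO minus Ctrl, from edgeR's quasi-likelihood test. P-values were adjusted by Benjamini-Hochberg over the 11170 genes with enough counts to be tested. A gene passed the test at an adjusted p under 0.05. Ryr2 had 225 CPM at the lowest, 324 at the median and 371 at the highest in KO libraries, against 602, 649 and 763 CPM in Ctrl libraries. The groups did not overlap, with Ryr2 lower in the group that received the virus named for the Ryr2 guide (log2 fold change -1.13, SE 0.0977). All 7 cardiomyocyte markers were abundant, with a summed level of 65252 to 89939 CPM in KO libraries and 80716 to 95400 CPM in Ctrl libraries. KO replicates 4 and 5 and Ctrl replicates 4 and 5, which have the neighbouring library indices 7 to 10, stood apart from the other 10 libraries on the second principal component (24.2% of the variance). The labels name no batch, and results within each set of libraries are given below.

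Of the 33 genes, 31 passed the filter and 10 were higher and 3 lower in KO libraries. The 10 higher genes were 32.3% of those tested, where 14.5% of all tested genes were higher. The 3 lower genes were 9.68%, where 13.7% of all tested genes were lower. The higher genes were Cdkn1a, Eda2r, Bbc3, Trp53inp1, Plk2, Phlda3, Zmat3, Aen, Bax and Trp53, and the lower genes were Perp, Ccng1 and Ercc5. The median log2 fold change was 0.15 over the 31 genes and 0.01 over all tested genes. The groups did not overlap in 8 of the higher genes and in 1 lower gene, Perp. Among all tested genes 5.84% did not overlap on the higher side and 4.71% on the lower side. Of the 10 higher genes, 6 act in cell death or survival signalling, and none of the 7 damage sensing and repair genes among the 33 was higher. With 7 genes, a count of 0 is not far from the 14.5% of all tested genes.

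**Figure D1:**
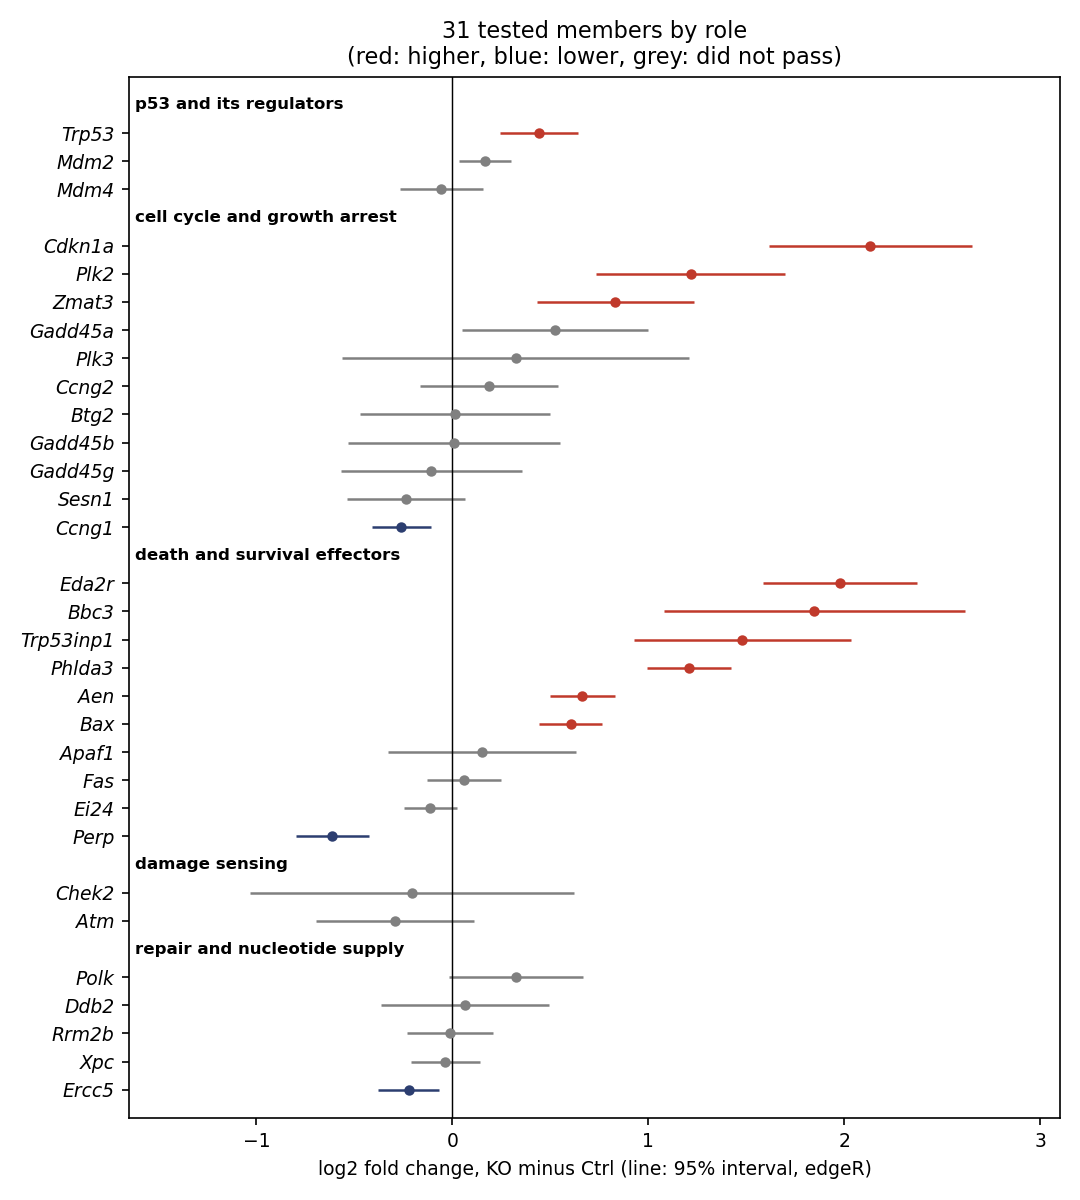
Log2 fold changes (KO minus Ctrl) of the 31 tested genes, grouped by role, each with its 95% interval from the edgeR fit. The points run from 2.13 for Cdkn1a to -0.61 for Perp, and the damage sensing and repair genes lie between -0.29 and 0.32.

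p53 binds DNA as a tetramer, at a pair of short half-sites of 10 bases. The windows of RefSeq genes (GRCm38.p6, the assembly of mm10), from 250 bases before to 50 after a transcription start, were searched for a pair of p53 half-sites in tandem. The pair could be separated by at most 1 base and differ from the consensus at no more than 3 of its 20 positions, with the central C and G of each half-site kept. The consensus is its own reverse complement, so the search covers both strands. Windows were at hand for 25 of the 33 genes, and 7 of them (28.0%) held such a pair, against 884 of 27025 genes (3.27%) in RefSeq. The genes were listed as p53 targets partly because such sites are known in them, so the share is a description of the list. Of the 10 genes that passed the test and had a window, 6 held a pair. They were the higher genes Cdkn1a, Bax, Bbc3, Aen and Trp53 and the lower gene Ccng1. Of the 15 that did not pass, 1 did, Sesn1. A single half-site with no mismatch was found in 5 of the 10 genes that passed and in 5 of the 15 that did not, a smaller contrast than that of the paired search. These search settings were chosen after the expression values were seen. The 250 bases before the start are shown for 4 genes because they let the site be set beside the response, with the matched pair of half-sites in capitals.
Cdkn1a: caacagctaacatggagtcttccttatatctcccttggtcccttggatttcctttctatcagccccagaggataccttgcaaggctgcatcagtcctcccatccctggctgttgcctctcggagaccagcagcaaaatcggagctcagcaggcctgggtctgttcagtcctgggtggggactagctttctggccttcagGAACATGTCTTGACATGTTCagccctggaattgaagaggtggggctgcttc
Bax: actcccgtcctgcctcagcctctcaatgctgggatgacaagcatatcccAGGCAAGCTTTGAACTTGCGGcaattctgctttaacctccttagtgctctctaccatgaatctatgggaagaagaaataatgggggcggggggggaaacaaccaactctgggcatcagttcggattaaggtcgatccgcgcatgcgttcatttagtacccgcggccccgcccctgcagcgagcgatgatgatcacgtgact
Bbc3: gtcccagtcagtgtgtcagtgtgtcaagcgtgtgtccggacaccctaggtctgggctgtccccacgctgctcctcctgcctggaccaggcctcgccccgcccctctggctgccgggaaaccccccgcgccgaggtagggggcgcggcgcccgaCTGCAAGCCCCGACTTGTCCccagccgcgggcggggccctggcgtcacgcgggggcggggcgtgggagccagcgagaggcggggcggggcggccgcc
Ccng1: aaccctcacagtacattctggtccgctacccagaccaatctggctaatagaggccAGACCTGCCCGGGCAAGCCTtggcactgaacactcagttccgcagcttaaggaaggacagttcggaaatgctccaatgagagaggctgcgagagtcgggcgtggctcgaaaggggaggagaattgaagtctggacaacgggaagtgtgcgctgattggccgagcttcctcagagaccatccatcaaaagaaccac

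The Cdkn1a stretch lies at chr17:29090729-29090978 (plus strand), and its site begins 51 bases before the upstream one of the gene's annotated starts and differs from the consensus at 1 position. The Bax stretch lies at chr7:45466899-45467148 (minus strand), with a site that begins 201 bases before the start, has 1 base between its half-sites and differs at 2 positions. In Bbc3, at chr7:16309333-16309582 (plus strand), the site begins 97 bases before the start and differs at 3 positions. In Ccng1, at chr11:40755287-40755536 (minus strand), it begins 195 bases before the start and differs at 1 position. The site of Aen (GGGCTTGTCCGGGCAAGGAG, 3 differences) lies between its annotated starts, 121 bases before one of them. Cdkn1a and Ccng1 thus held sites with equally few differences and moved in opposite directions. No pair was found in the windows of Eda2r, Phlda3, Plk2 or Mdm2, which says only that these letters are not in those windows.

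Trp53 itself was higher, Mdm2 lay near the threshold and Mdm4 did not pass the test. Trp53 (chromosome 11, 69580359 to 69591873, plus strand, mm10) had 15.6 CPM at the lowest, 17.2 at the median and 19.1 at the highest in KO libraries, against 10.7, 12.98 and 15.2 CPM in Ctrl libraries. Every KO library lay above every Ctrl library, by a small margin (log2 fold change 0.44, SE 0.0940, adjusted p = 0.0020, edgeR). Mice carry a processed pseudogene of Trp53, so its count is uncertain to that extent. Mdm2 (chromosome 10, 117688905 to 117710716, minus strand), the ubiquitin ligase that marks p53 for destruction, had 107, 123 and 139 CPM (lowest, median and highest) in KO libraries, against 96.3, 110 and 113 CPM in Ctrl libraries. The groups overlapped, although 5 of 7 KO libraries lay above all Ctrl libraries (log2 fold change 0.17, 95% interval 0.03 to 0.30, adjusted p = 0.062, edgeR). Mdm2 passed on leaving out KO replicate 2, 3 or 4 (adjusted p = 0.033 to 0.047, edgeR), and its adjusted p ranged up to 0.13 with other libraries left out. Mdm4, which binds p53 and blocks its activity, had 8.87, 10.7 and 13.9 CPM in KO libraries, against 10.4, 11.5 and 12.3 CPM in Ctrl libraries. Its KO libraries lay on both sides of the Ctrl range (log2 fold change -0.06, 95% interval -0.27 to 0.16). The upper end of the interval for Mdm2 is far below the log2 fold change of Cdkn1a, and the difference between these folds was not tested.

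Among the 11 genes of cell cycle and growth arrest, 3 were higher (Cdkn1a, Plk2 and Zmat3) and 1 was lower (Ccng1). These were 27.3% and 9.09% of those tested, where 14.5% of all tested genes were higher and 13.7% lower. Cdkn1a encodes p21, the inhibitor of cyclin-dependent kinases through which p53 stops the cell cycle. It lies on chromosome 17 from 29090986 to 29100722 (plus strand). It had 132 CPM at the lowest, 198 at the median and 262 at the highest in KO libraries, against 23.4, 34.5 and 79.0 CPM in Ctrl libraries. The groups were far apart, and the Ctrl libraries differed among themselves more than the KO libraries in relative terms (199 ± 40.1 CPM in KO and 45.01 ± 21.5 CPM in Ctrl, SD, n = 7 each). This gave a log2 fold change of 2.13 (SE 0.245, adjusted p = 7.7e-06, edgeR), the largest among the 31 genes.

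Plk2 (chromosome 13, 110395044 to 110400843, plus strand), a polo-like kinase known as a p53 target and as an immediate early gene, had 60.9, 93.1 and 139 CPM (lowest, median and highest) in KO libraries, against 21.4, 48.1 and 66.0 CPM in Ctrl libraries. KO replicate 2 alone fell within the Ctrl range (log2 fold change 1.22, SE 0.229, adjusted p = 7.2e-04, edgeR). Its relative Plk3 was near the limit of detection, at 0.947 to 5.70 CPM in KO and 0.690 to 4.55 CPM in Ctrl libraries, and did not pass. Zmat3 (chromosome 3, 32334794 to 32365665, minus strand), an RNA-binding zinc finger protein and p53 target, had 2.30, 5.03 and 6.32 CPM in KO libraries, against 2.30, 2.62 and 3.46 CPM in Ctrl libraries. Only KO replicate 3 lay within the Ctrl range (log2 fold change 0.83, SE 0.190, adjusted p = 0.0034, edgeR). Zmat3 shares 2.08% of its exonic bases with another gene.

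Ccng1 (chromosome 11, 40748552 to 40755286, minus strand) encodes cyclin G1, a p53 target that feeds back on Mdm2 through a phosphatase, and was the most abundant of the 33 genes per length of transcript. It had 1273, 1446 and 1641 CPM (lowest, median and highest) in KO libraries, against 1486, 1780 and 1808 CPM in Ctrl libraries. The groups overlapped, and all 7 KO libraries lay below the Ctrl median (log2 fold change -0.26, SE 0.0708, adjusted p = 0.011, edgeR). The related cyclin Ccng2, which is known as a FoxO target, averaged 21.4 ± 3.98 CPM in KO and 18.8 ± 5.99 CPM in Ctrl libraries and did not pass (log2 fold change 0.19).

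The Gadd45 genes encode small stress proteins that bind cell cycle and MAP kinase partners, and none of the 3 passed the test. Gadd45a, the family member best known as a p53 target, had 7.28, 15.6 and 27.3 CPM (lowest, median and highest) in KO libraries, against 9.63, 11.5 and 17.9 CPM in Ctrl libraries. Its KO libraries lay on both sides of the Ctrl range, with 3 above it and 1 below (log2 fold change 0.52, adjusted p = 0.096, edgeR). Without KO replicate 4 it passed (0.67, adjusted p = 0.0098, edgeR). Gadd45a shares 19.4% of its exonic bases with the gene model E230016M11Rik, and reads from the 2 cannot be told apart without strand. Gadd45b (9.56 ± 2.996 CPM in KO, 9.63 ± 3.66 CPM in Ctrl) and Gadd45g (85.3 ± 29.5 CPM in KO, 91.8 ± 27.5 CPM in Ctrl) had log2 fold changes of 0.01 and -0.11. The stress sensor Sesn1, which restrains mTORC1, averaged 205 ± 48.8 CPM in KO and 241 ± 46.7 CPM in Ctrl libraries (log2 fold change -0.24). The antiproliferative gene Btg2 averaged 386 ± 127 and 382 ± 122 CPM in KO and Ctrl libraries (log2 fold change 0.01, 95% interval -0.47 to 0.50).

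**Figure D2:**
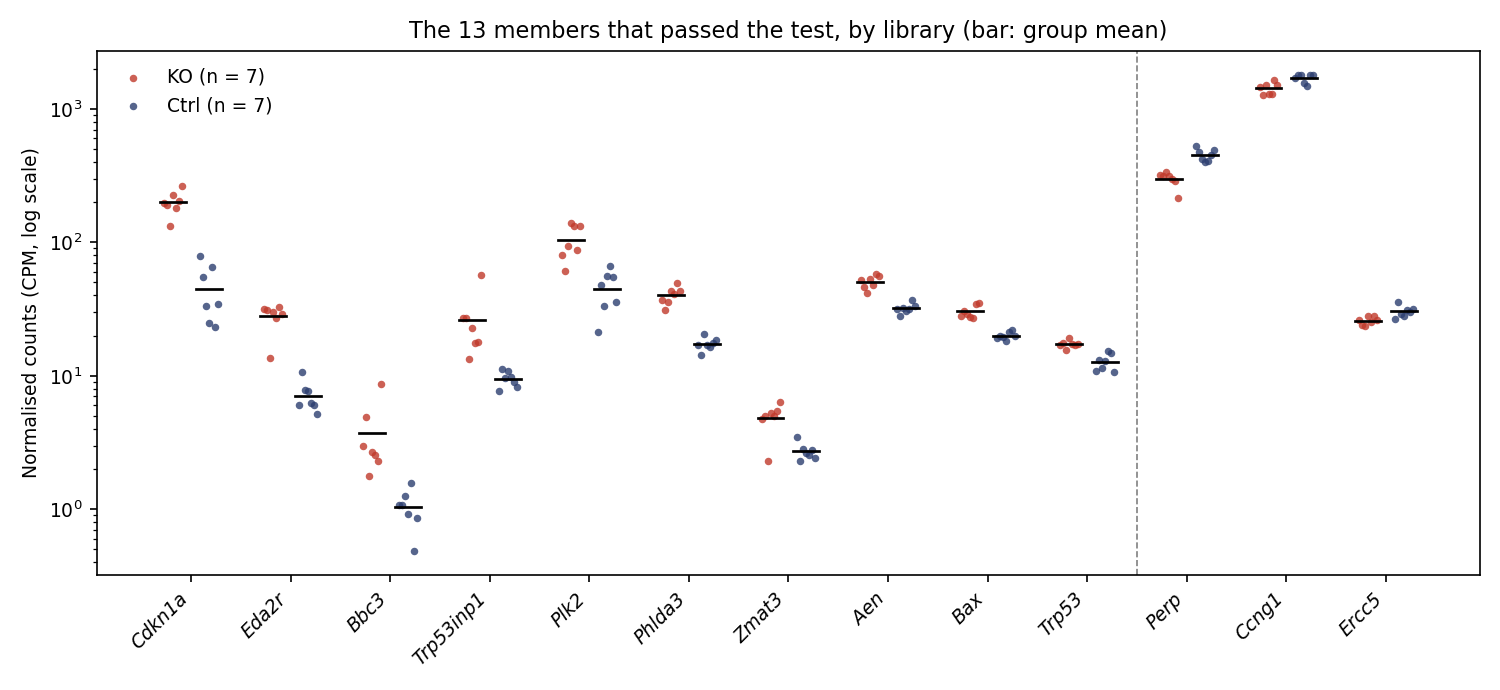
Normalised counts (CPM, log scale) of the 13 genes that passed the test, 1 point per library, with the KO libraries (red) left of the Ctrl libraries (blue) for each gene and a bar at each group mean. The 10 genes left of the dashed line were higher in KO libraries, the 3 right of it lower, and the groups overlap for Plk2, Zmat3, Ccng1 and Ercc5.

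Of the 12 genes of cell death and survival signalling, 10 were tested, and 6 of these were higher (Eda2r, Bbc3, Trp53inp1, Phlda3, Aen and Bax) and 1 was lower (Perp). The shares were 60% higher and 10% lower, against 14.5% and 13.7% of all tested genes. Eda2r, a receptor of the TNF receptor family for the ligand ectodysplasin A2, lies on the X chromosome (97333841 to 97377209, minus strand). It had 13.7, 30.1 and 32.9 CPM (lowest, median and highest) in KO libraries, against 5.18, 6.26 and 10.6 CPM in Ctrl libraries. In 6 of the KO libraries there were 27.1 CPM or more, and KO replicate 3 stood alone at the low end, still above all Ctrl libraries (log2 fold change 1.98, SE 0.186, adjusted p = 8.2e-07, edgeR). Phlda3 (chromosome 1, 135766085 to 135769134, plus strand), a membrane-bound inhibitor of the survival kinase Akt, had 31.1, 40.7 and 49.8 CPM in KO libraries, against 14.3, 17.1 and 20.7 CPM in Ctrl libraries. The groups did not overlap (log2 fold change 1.21, SE 0.102), and its adjusted p of 2.5e-07 was the smallest of the 31 genes.

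Bbc3 and Bax belong to the BCL2 family, which controls the permeability of the mitochondrial outer membrane. Bbc3 (chromosome 7, 16309583 to 16318334, plus strand) encodes PUMA, a BH3-only protein that triggers this step, and was scarce in all libraries. It had 1.76, 2.69 and 8.69 CPM (lowest, median and highest) in KO libraries, against 0.487, 1.07 and 1.57 CPM in Ctrl libraries. KO replicate 7 was well above the others, and the groups did not overlap (log2 fold change 1.85, SE 0.364, adjusted p = 0.0011, edgeR). These levels rest on 222 counts over the KO libraries and 54 over the Ctrl libraries. Bax (chromosome 7, 45461695 to 45466898, minus strand), which forms the pores themselves, had 27.3, 29.1 and 35.4 CPM in KO libraries, against 18.2, 19.9 and 21.9 CPM in Ctrl libraries. The difference was small and uniform, with no overlap (log2 fold change 0.60, SE 0.0768, adjusted p = 2.1e-05, edgeR).

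Trp53inp1 (chromosome 4, 11156441 to 11174377, plus strand), a nuclear protein that acts in autophagy and death under stress, had 13.3, 22.8 and 57.2 CPM (lowest, median and highest) in KO libraries, against 7.65, 9.62 and 11.2 CPM in Ctrl libraries. All KO libraries were above the Ctrl range, with KO replicate 7 at more than any other library (log2 fold change 1.48, SE 0.262, adjusted p = 4.3e-04, edgeR). Aen (chromosome 7, 78895927 to 78908833, plus strand), a nuclease that p53 induces during apoptosis, had 42.0, 52.6 and 57.9 CPM in KO libraries, against 28.2, 31.7 and 37.0 CPM in Ctrl libraries, with no overlap (log2 fold change 0.66, SE 0.0787, adjusted p = 1.0e-05, edgeR).

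Perp (chromosome 10, 18845071 to 18857072, plus strand), a membrane protein of desmosomes that p53 induces in dying cells, went the other way. It had 215, 311 and 335 CPM (lowest, median and highest) in KO libraries, against 401, 450 and 523 CPM in Ctrl libraries. No KO library reached the Ctrl range (log2 fold change -0.61, SE 0.0889, adjusted p = 7.1e-05, edgeR). The other 3 tested genes of the group did not pass. The death receptor Fas averaged 20.1 ± 2.21 CPM in KO and 19.3 ± 2.10 CPM in Ctrl libraries (log2 fold change 0.06, 95% interval -0.13 to 0.25). The apoptosome scaffold Apaf1 had a log2 fold change of 0.15 (95% interval -0.33 to 0.63), and Ei24, an endoplasmic reticulum protein, one of -0.11 (-0.25 to 0.02). Ei24 passed without KO replicate 7 (-0.16, adjusted p = 0.040, edgeR). Pmaip1, which encodes the BH3-only protein NOXA, and the death receptor Tnfrsf10b were below the filter over all 14 libraries and were not tested there. Pmaip1 held 31 counts over the KO libraries and 7 over the Ctrl libraries, and Tnfrsf10b 74 over the KO and 60 over the Ctrl libraries. In a fit with no filter on low counts, the log2 fold change of Pmaip1 was 1.89 (adjusted p = 0.086, edgeR) and that of Tnfrsf10b was 0.19. That fit called 10 of the 33 genes higher, where 9.39% of all genes in it were, and 2 lower, where 7.74% were.

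None of the 7 damage sensing and repair genes among the 33 was higher by the test, and 1, Ercc5, was lower. Among all tested genes 14.5% were higher and 13.7% lower, and counts of 0 and 1 among 7 genes lie near those shares. Atm, the kinase that responds to broken DNA, had 3.39, 5.44 and 7.73 CPM (lowest, median and highest) in KO libraries, against 4.27, 6.99 and 9.51 CPM in Ctrl libraries. The groups overlapped (log2 fold change -0.29, 95% interval -0.70 to 0.11). Its downstream kinase Chek2 was close to the filter, at 2.05 ± 1.39 CPM in KO and 2.35 ± 1.06 CPM in Ctrl libraries (log2 fold change -0.21, 95% interval -1.03 to 0.62). Ercc5 (chromosome 1, 44147744 to 44181260, plus strand), the nuclease that cuts on the 3' side of a bulky lesion in nucleotide excision repair, was lower. It had 23.6, 26.2 and 28.0 CPM in KO libraries, against 26.4, 30.2 and 35.6 CPM in Ctrl libraries, with overlap (log2 fold change -0.22, SE 0.0733, adjusted p = 0.030, edgeR). This call was lost on leaving out KO replicate 2, 3 or 5 or Ctrl replicate 2 or 7, with adjusted p up to 0.066 over all libraries left out in turn.

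The lesion sensors of nucleotide excision repair that p53 is known to induce in human cells did not pass. Xpc averaged 23.8 ± 2.29 CPM in KO and 24.4 ± 2.58 CPM in Ctrl libraries (log2 fold change -0.04, 95% interval -0.21 to 0.14). Ddb2 averaged 2.58 ± 0.406 and 2.44 ± 0.754 CPM in KO and Ctrl libraries (log2 fold change 0.07), and 33.5% of its exonic bases are shared with Acp2, so its count is uncertain. Rrm2b, the p53-inducible subunit of ribonucleotide reductase that supplies nucleotides for repair outside S phase, averaged 15.97 ± 1.96 CPM in KO and 16.2 ± 2.20 CPM in Ctrl libraries (log2 fold change -0.01, 95% interval -0.23 to 0.21). The lesion-bypass polymerase Polk had a log2 fold change of 0.32 (95% interval -0.02 to 0.67, adjusted p = 0.15, edgeR).

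The 33 genes differed widely in level. Per kilobase of exon, Ccng1 was highest in KO and Ctrl libraries, at 408 and 489 CPM per kb. Perp followed at 156 and 239, then Btg2 at 125 and 124 CPM per kb in KO and Ctrl libraries. Cdkn1a stood at 98.4 CPM per kb in KO libraries and at 22.2 in Ctrl libraries, where 8 of the 33 genes were higher. Of the death genes, Bax stood at 34.9 CPM per kb in KO and 23.0 in Ctrl libraries, and Eda2r at 4.80 in KO and 1.22 in Ctrl libraries. Bbc3 was among the scarcest, at 1.87 CPM per kb in KO and 0.523 in Ctrl libraries.

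The 10 higher genes differed in level across KO libraries, and the same libraries often stood at the ends. KO replicate 3 was the lowest KO library for 7 of them, Cdkn1a, Eda2r, Bbc3, Trp53inp1, Zmat3, Aen and Trp53. KO replicate 7 was the highest for 5 of them, Cdkn1a, Bbc3, Trp53inp1, Zmat3 and Bax, and it was also the lowest library of all for Perp. Ryr2 stood at 301 CPM in KO replicate 3 and at 272 CPM in KO replicate 7, both inside the range of the other KO libraries. KO replicate 3 held 7411404 counts and KO replicate 7 held 11064715. Without KO replicate 3 the log2 fold change of Eda2r was 2.10 and that of Zmat3 was 0.96, and without KO replicate 7 that of Trp53inp1 was 1.15 and that of Bbc3 was 1.45. All 10 genes passed the test in both cases.

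**Figure D3:**
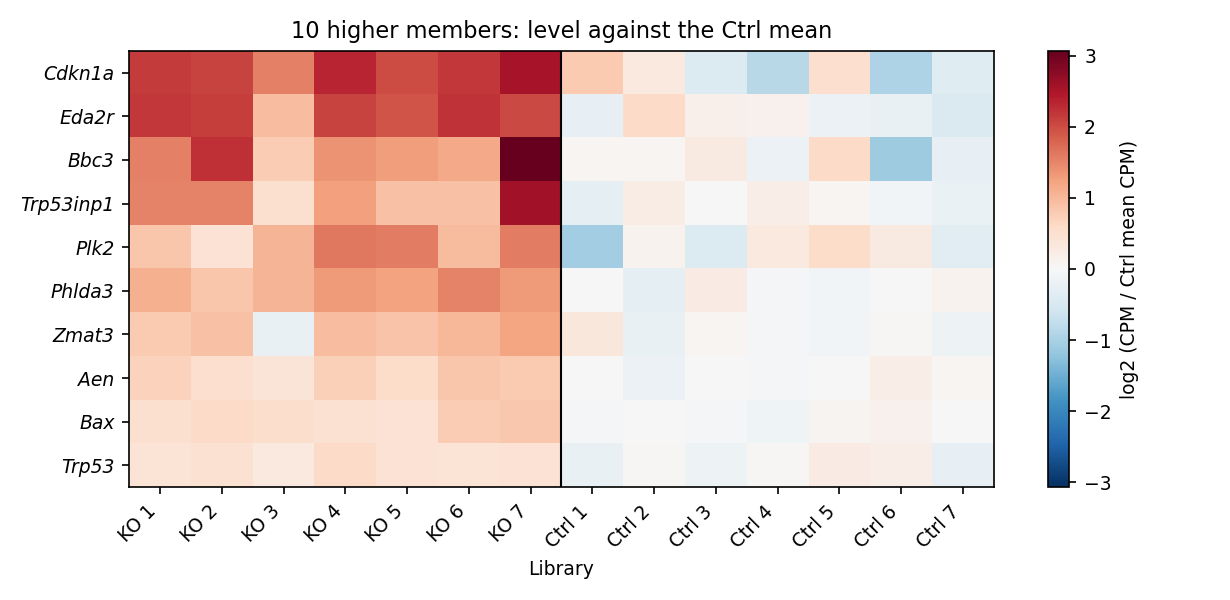
Level of the 10 higher genes (rows) in each library (columns, KO left of the line and Ctrl right), as log2 of the CPM over the Ctrl mean. KO replicate 3 is the palest KO column for 7 of the 10 genes, with Zmat3 at 2.30 CPM within the Ctrl range, and KO replicate 7 is darkest for Bbc3 and Trp53inp1.

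In both sets of libraries all 13 genes kept the direction they had in the pooled fit. Among the 10 libraries outside indices 7 to 10 (5 per group), 11 of the 33 genes were higher, where 12.5% of all tested genes were, and 2 were lower, where 11.6% were. The additional higher gene was Gadd45a (log2 fold change 0.66, adjusted p = 0.024, edgeR), and the gene lost was Ercc5. Within indices 7 to 10 (2 libraries per group), 6 were higher, where 5.84% of all tested genes were, and 2 were lower, where 6.59% were. The 6 were Cdkn1a, Eda2r, Phlda3, Plk2, Trp53inp1 and Aen. The log2 fold changes within indices 7 to 10 and among the other 10 libraries were 2.15 and 2.11 for Cdkn1a, 1.98 and 1.96 for Eda2r, and 1.28 and 1.16 for Phlda3. They lay further apart for Bbc3 (1.03 and 2.14), Trp53inp1 (0.91 and 1.68) and Gadd45a (-0.01 and 0.66). For Trp53, Bax, Bbc3, Zmat3 and Ercc5 the test was not passed within indices 7 to 10 (adjusted p = 0.27, 0.094, 0.15, 0.074 and 0.46 in that order, edgeR), with 2 libraries per group. Their log2 fold changes there were 0.33 for Trp53, 0.43 for Bax, 0.92 for Zmat3 and -0.19 for Ercc5, against 0.44, 0.60, 0.83 and -0.22 over all libraries. The interaction of group and library set, tested over all genes with edgeR, called 0 of the 31 genes, and 0 of the 31 had an unadjusted p under 0.05. Over all 11170 genes it called 0 (0%), with 339 (3.03%) at an unadjusted p under 0.05.

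**Figure D4:**
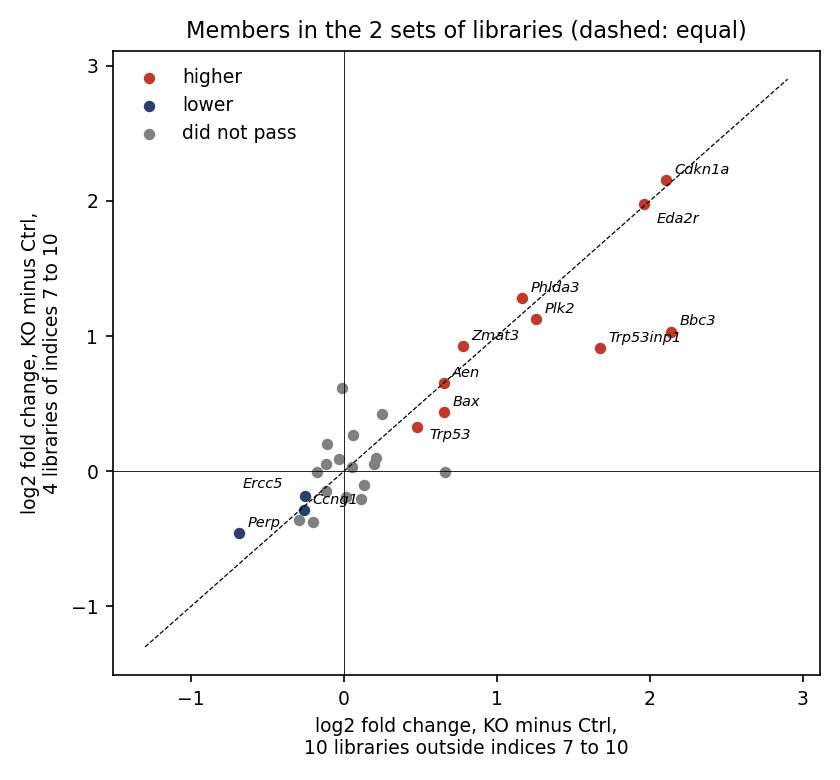
Log2 fold changes (KO minus Ctrl) of the tested genes within the 4 libraries of indices 7 to 10 (vertical) against those among the other 10 libraries (horizontal); the dashed line marks equal folds. Chek2 and Tnfrsf10b had enough counts only within indices 7 to 10 and are not plotted. Cdkn1a, Eda2r and Phlda3 lie on or near the line, and Bbc3 and Trp53inp1 lie below it.

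Markers of macrophages also moved with the groups. Of 12 macrophage markers 11 were tested. Of these 4 (36.4%) were higher (Lyz2, Ctss, Emr1 and C1qb) and 0 lower in KO libraries, against 14.5% and 13.7% of all tested genes. The summed level of the 12 markers was 64.8 to 465 CPM in KO libraries and 25.7 to 123 CPM in Ctrl libraries. None of the 12 was at 0 in all libraries. The highest sums were in KO replicates 4 and 5 (465 and 307 CPM), and the highest Ctrl sums were in Ctrl replicates 4 and 5 (118 and 123 CPM). These are the libraries of indices 7 to 10, so the marker level follows the library set as well as the group. In bulk libraries, more cells of a type and more RNA per cell cannot be told apart. With the mean level of these markers as a covariate, all 10 higher genes passed the test, with log2 fold changes of 2.20 for Cdkn1a, 1.99 for Eda2r, 0.90 for Plk2 and 0.34 for Trp53. Ccng1 (log2 fold change -0.15) and Ercc5 (-0.23) then no longer passed (adjusted p = 0.085 and 0.062, edgeR). Gadd45a (0.85, adjusted p = 0.0036) and Chek2 (-1.02, adjusted p = 0.0093) passed in this fit. No fibroblast marker (0 of 7 tested) or endothelial marker (0 of 8) passed in edgeR (0 at an unadjusted p under 0.05, and 0 by DESeq2). All 7 fibroblast markers nevertheless had a positive log2 fold change (median 0.63). Of the endothelial markers, 7 of 8 had a negative one (median -0.13). The summed fibroblast level was 152 to 1162 CPM in KO and 177 to 574 CPM in Ctrl libraries. Pericyte and smooth muscle markers had 1 higher, Cspg4, and 1 lower, Abcc9, of 7 tested (14.3% each, near the shares of all tested genes). Abcc9 averaged 350 CPM in Ctrl libraries, where Pdgfrb, the next highest of that list, averaged 36.1 CPM. Whether the Abcc9 reads came from pericytes or smooth muscle was not tested. None of 8 lymphocyte and neutrophil markers passed the filter. Among the cardiomyocyte markers 4 of 7 were lower (Tnni3, Tnnt2, Myl2 and Pln), with 0 higher. These 4 were 57.1% of the 7, where 13.7% of all tested genes were lower. The part of these cell type differences in the results for p53 and damage genes was not tested beyond the macrophage covariate.

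Of 30 further p53 targets, 26 were tested, and 7 were higher and 6 lower (median log2 fold change 0.03). These were 26.9% and 23.1% of those tested, where 14.5% of all tested genes were higher and 13.7% lower. The epoxide hydrolase Ephx1 averaged 103 ± 32.3 CPM in KO libraries and 9.15 ± 1.44 CPM in Ctrl libraries (SD, n = 7 each, log2 fold change 3.50, SE 0.206). Gdf15, a secreted stress hormone that other stress pathways also induce, averaged 14.02 ± 6.07 and 0.875 ± 0.469 CPM in KO and Ctrl libraries (log2 fold change 3.91, SE 0.356). The tetraspanin Cd82 had a log2 fold change of 0.96, and the iron reductase Steap3 one of -0.53. The list was thus split between higher and lower genes. Of 20 further regulators and partners of p53, 18 were tested, and 3 were higher (16.7%) and 2 lower (11.1%), shares near those of all tested genes. Trp63, a member of the p53 family, stood at 2.36 ± 0.485 CPM in KO and 1.31 ± 0.345 CPM in Ctrl libraries (log2 fold change 0.86). The ribosomal proteins Rpl5 (0.52) and Rpl11 (0.38), which can bind Mdm2, were also higher, but both have many processed copies in the genome and their counts are uncertain. Ribosomal protein genes outside the list were higher too, such as Rps12 (0.91) and Rpl7 (0.42), although Rpl41 (0.35) did not pass. The rise was thus not particular to Rpl5 and Rpl11. Trim24 (-0.35), a ubiquitin ligase for p53, and Ppp1r13l (-0.25), an inhibitor of p53, were lower.

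The 7 further lists of break signalling and repair held 72 tested genes, of which 12 were higher and 4 lower (median log2 fold change 0.06). The higher genes were 16.7% of them, near the 14.5% of all tested genes, and the lower genes were 5.56%, where 13.7% of all tested genes were lower. That share pools the 7 lists, which differed among themselves. The genes named next are single results, and no list was tested as a set. In the list of break sensing and signalling, 2 of 12 tested genes were higher, the scaffold Trp53bp1 (0.29) and the kinase Prkdc (0.44), and 0 were lower. End joining is the route by which non-dividing cells rejoin cut ends, and 4 of its 9 tested genes were higher and 1 lower. These were 44.4% and 11.1% of a small list, where 14.5% of all tested genes were higher and 13.7% lower. Xrcc6, which encodes the end-binding protein Ku70, averaged 71.0 ± 11.4 CPM in KO and 47.8 ± 3.04 CPM in Ctrl libraries (SD, n = 7 each, log2 fold change 0.57, SE 0.0894, adjusted p = 1.5e-04, edgeR). BC029214, the older symbol of the end-joining cofactor Paxx (0.42), the nuclease Dclre1c (0.75) and the polymerase Poll (0.24) were the other higher genes, and Polq (-0.71), of an alternative joining route, was lower. In homologous recombination 2 of 8 tested genes (25%) were higher, Brca2 (2.04) and Xrcc2 (0.32). Brca2 averaged 6.94 ± 2.70 CPM in KO and 1.65 ± 0.492 CPM in Ctrl libraries (adjusted p = 1.7e-05, edgeR).

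In base excision and single-strand break repair 1 of 16 tested genes was higher, Aptx (0.22), and 2 were lower, the uracil glycosylase Ung (-0.97) and Parp1 (-0.18). Single genes were higher in nucleotide excision repair (Ercc6, 0.37, 1 of 14 tested) and mismatch repair (Msh3, 0.32, 1 of 7), with 0 lower in both. In translesion synthesis Poli (1.22) was higher and Rev1 (-0.32) lower, of 6 tested. None of the 4 tested further inhibitors of cyclin-dependent kinases passed (edgeR; 2 had an unadjusted p under 0.05, and DESeq2 called 0), and their log2 fold changes ran from -0.52 for Cdkn1c to -0.11. Cdkn1a was thus the only tested gene of this kind that passed.

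**Figure D5:**
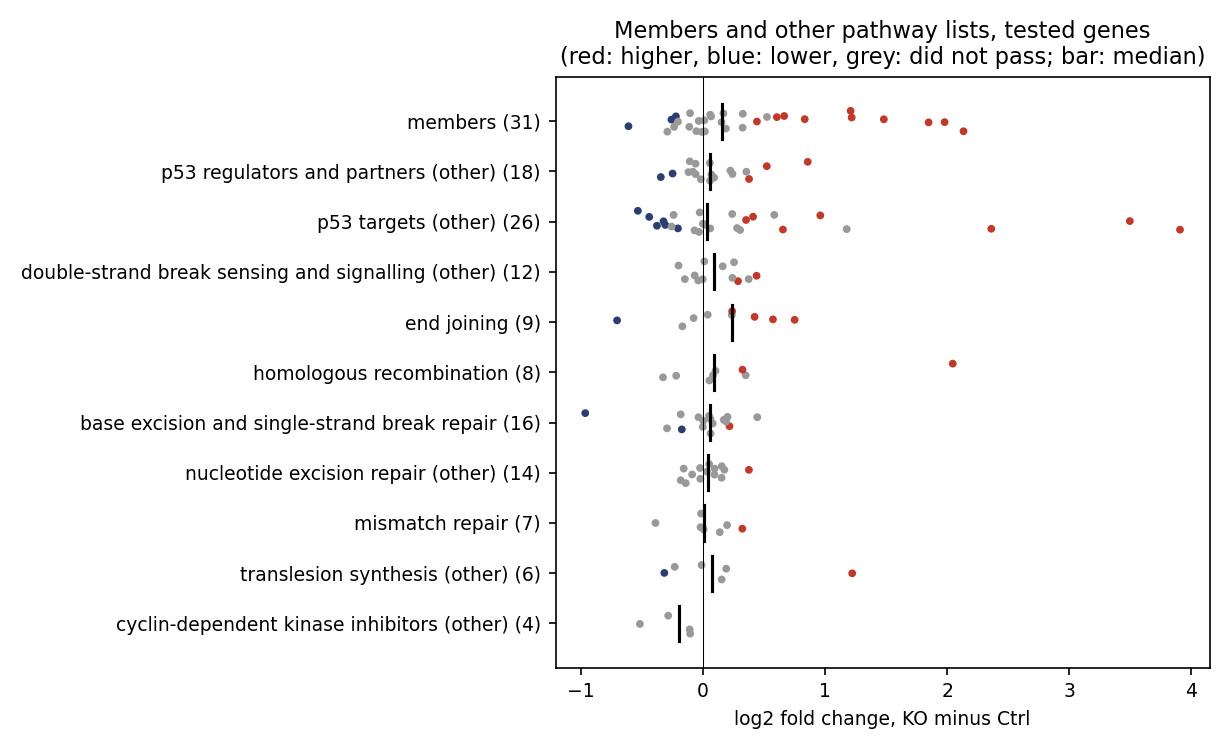
Log2 fold changes (KO minus Ctrl) of tested genes in the list of p53, its targets and damage genes (top row, 31 genes) and in the further pathway lists, with the number tested in brackets and a bar at each median. The medians lie between -0.20 and 0.23, and the largest increases are Gdf15 (3.91), Ephx1 (3.50), Sesn2 (2.36), Cdkn1a (2.13) and Brca2 (2.04).

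The authors' deposited table of their own DESeq2 comparison gives Ryr2 a log2 fold change of -1.14, so that positive values in it also mean higher in the KO group. At an adjusted p under 0.05, the authors' deposited table has 10 of the 33 genes higher, where 12.4% of its genes with an adjusted p are, and 3 lower, where 12% are. Its log2 fold changes are 2.14 for Cdkn1a, 1.97 for Eda2r and 0.16 for Mdm2 in the authors' deposited table, the last with an adjusted p of 0.084.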

How the data were processed

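Per the file headers, the authors deposited raw counts of reads on each gene's exons for 14 libraries. The submitters' processing notes name STAR, featureCounts, DESeq2, DESeq and mm10, without versions or a strand setting. SMART-Seq v4 libraries, per the labels' protocols, do not mark strand, so overlapping genes cannot be told apart. The authors' deposited table also holds log2 fold changes, p-values, a mean signal of normalised counts and a score (the Wald statistic); per the file headers these come from DESeq2. It was used only where it is named.

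The main test was the quasi-likelihood test of edgeR 4.0.16 (R 4.3.3), two-sided, with filterByExpr, TMM scaling and no covariates. It was fitted on all 11170 genes that passed. The code was also run on counts simulated from the means and dispersions fitted to these data. That run checks the code and does not show that the model suits these libraries. CPM were computed with TMM-scaled library sizes from all 7 libraries per group. Standard errors were taken from the fold change and its F value. Alternatives were DESeq2 1.42.0, RLE scaling, no filter, at least 1 CPM in 7 libraries, leaving out each library, a replicate block, a term for library indices 7 to 10, each set of libraries alone, and a macrophage covariate. No row lacked a gene name, and 0 value columns were unmapped.

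The 33 genes and the further lists were chosen with earlier results of these data known. All 33 are named. Values are given in full for Trp53, its regulators, Cdkn1a and the genes that passed, and in each further list up to 4 tested genes of lowest p could be named, plus those behind any count of at most 5; mostly those that passed are given. Sesn2, Rps12, Rpl7 and Rpl41 were named after their values were seen. Promoter windows come from RefSeq (GRCm38.p6). The motif settings were chosen after the expression values were seen. Coordinates of genes are those of the count table (mm10).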

Additional observations from a re-analysis of the deposited data

Results flagged for a closer look

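In 8 of 66 groups of 7 values (33 genes in 2 groups), the gap between the most extreme library and its neighbour was larger than 0.568 of the group's range. This cutoff flags about 1 in 20 groups of independent, normally distributed values. The CPM of all 33 genes come from the same 14 libraries and need not be normal, so that rate cannot measure an excess here. KO replicate 3 was low for Eda2r (13.7 CPM, next 27.1) and for Zmat3 (2.30 CPM, next 4.74). KO replicate 7 was high for Trp53inp1 (57.2 CPM, next 27.3) and low for Perp (215 CPM, next 289). Ctrl replicate 2 was low for Mdm2 (96.3 CPM, next 107) and high for Ccng2 (31.4 CPM, next 20.9) and Fas (23.8 CPM, next 19.7). Ctrl replicate 5 was high for Tnfrsf10b (2.85 CPM, next 1.42), a gene below the filter on low counts. No gene had all KO libraries higher in one set of libraries and all lower in the other.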

How the results depend on the processing

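Of the 13 genes that passed, all 13 kept their direction under every alternative run, and between 8 and 13 still passed. The 10 higher and 3 lower genes were also those counts with DESeq2, with RLE scaling, with a filter of at least 1 CPM in 7 libraries and with a term for library indices 7 to 10. Within indices 7 to 10 alone the number of higher genes was 6, and over all genes 689 were higher and 777 lower, against 1621 and 1528 in the pooled fit; this fit has 4 libraries. The ribosomal gene Rpl11 had a log2 fold change of -0.035 in those libraries, against 0.38 in the pooled fit, and the cause was not tested. Leaving out each library in turn changed the side of the threshold in 10 gene results and left 424 as they were. The 10 were Ercc5 lost in 5, Mdm2 gained in 3 (without KO replicate 2, 3 or 4, adjusted p = 0.033 to 0.047, edgeR), Gadd45a gained without KO replicate 4 and Ei24 without KO replicate 7. The replicate numbers do not pair the samples by the labels, and deviations of same-numbered libraries correlated between 0.06 and 0.53, with 2 of 7 KO libraries most like their own number. With the replicate number as a block, 11 of the 33 genes were higher and 4 lower (1922 and 1848 over all genes), the additions being Mdm2 and Sesn1. Genes below 4 CPM, such as Bbc3, Plk3, Chek2 and Ddb2, are limited by depth, with 109 to 222 counts over the KO libraries.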

Other observations

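The search for tandem p53 half-sites can also be read over all genes. Of 8078 tested genes with a window, 304 held a pair, of which 18.4% were higher and 12.5% lower in KO libraries. Among the 7774 without a pair, 14.6% were higher and 14.1% lower. With the listed p53 and damage genes left out, the shares among the remaining 297 genes with a pair were 17.2% higher and 12.5% lower, and their median log2 fold change was 0.01. These shares are a description, and no test of their difference was made. Genes with several annotated starts have more than 1 window and more chances to hold a pair.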
